A study of Mus musculus with 18 samples.

Results

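The MAP kinase phosphatases Dusp1, Dusp3, Dusp4, Dusp6, Dusp8 and Dusp14 and the sprouty-type proteins Spry2, Spry4 and Spred1 were examined in mouse striatum after cocaine. Members were chosen by name: every probe set annotated to exactly 1 of these 9 gene symbols. This gave 13 of the 22690 probe sets on the array, standing for 8 of 12393 genes that had a probe set of their own, while no probe set annotated to Dusp4 alone was found and Dusp4 was not analysed here. Of the 13, 10 passed a filter on dim probe sets (a log2 level above 4 in at least 3 arrays), and they stand for 7 genes. Both probe sets of Spry4 and 1 of the 2 probe sets of Spry2 did not pass.

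The arrays came from 4 groups of littermate mice aged 10 to 20 weeks, killed 1 hour after an intraperitoneal injection, with 1 array per animal. The groups were mice with a mutation of Camk4 given 25 mg/kg cocaine (6 arrays) or saline (3 arrays), and control mice given 25 mg/kg cocaine (6 arrays) or saline (3 arrays). Camk4 encodes CaMKIV, a calcium-activated kinase that phosphorylates the transcription factor CREB, and cocaine blocks the dopamine transporter. The series asks how loss of CaMKIV changes the expression response to cocaine. All mice were caged singly and handled for 5 days beforehand, and the sources used here give neither the type of mutation nor the cells it affects. The tissue was whole striatum with the nucleus accumbens, so fewer cells of a type and less RNA per cell cannot be told apart. Animals carry Arabic numbers (12 arrays, 3 per group) or Roman numbers (6 arrays, cocaine only, 3 per genotype), called the 2 numbering series below. Groups rest on the sample titles, since the separate description line named the title's genotype and treatment in 0 of 18 samples.

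MAP kinases carry signals from receptors to the nucleus, and they are active only while phosphorylated on both a threonine and a tyrosine. Dual specificity phosphatases remove both phosphates. Nuclear inducible members such as Dusp1 act on ERK, JNK and p38 and are themselves transcribed within an hour of stimulation, Dusp6 resides in the cytoplasm and is selective for ERK, and Dusp8 prefers the stress kinases JNK and p38. Dusp3 and Dusp14 are small phosphatases without the kinase-binding domain of the others. Sprouty and Spred proteins act higher up, restraining the Ras and Raf steps that lead to ERK. In striatal neurons cocaine is known to activate ERK through dopamine and glutamate receptors.

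CREB binds the cAMP response element TGACGTCA, and the promoters of 1 representative of each of the 3 main phosphatase classes are shown because they differ in this element. The sequences are the 250 bases before an annotated transcription start, from RefSeq on GRCm38.p6, written 5′ to 3′ on the strand of the gene. The Dusp1 and Dusp6 windows adjoin the outer 5′ end of the annotated gene. The Dusp8 window instead lies inside the annotated gene, whose 5′ end is at 142095907, and so precedes an internal start. Capitals mark every TGACG or its reverse complement, so that a full element stands as an 8-letter run of capitals. Dusp1 lies at chr17:26508473-26508722 on the minus strand, Dusp6 at chr10:99262981-99263230 on the plus strand and Dusp8 at chr7:142095285-142095534 on the minus strand.
Dusp1: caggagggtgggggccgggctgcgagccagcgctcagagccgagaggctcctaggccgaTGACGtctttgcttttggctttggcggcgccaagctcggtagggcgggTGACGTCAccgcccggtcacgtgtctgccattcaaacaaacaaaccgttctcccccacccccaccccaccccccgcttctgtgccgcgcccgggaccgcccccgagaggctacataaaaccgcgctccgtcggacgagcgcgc
Dusp6: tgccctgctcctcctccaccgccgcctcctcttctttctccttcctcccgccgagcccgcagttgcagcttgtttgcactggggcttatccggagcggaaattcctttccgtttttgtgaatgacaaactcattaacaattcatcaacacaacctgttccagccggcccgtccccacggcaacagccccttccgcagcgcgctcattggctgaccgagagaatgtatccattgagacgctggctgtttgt
Dusp8: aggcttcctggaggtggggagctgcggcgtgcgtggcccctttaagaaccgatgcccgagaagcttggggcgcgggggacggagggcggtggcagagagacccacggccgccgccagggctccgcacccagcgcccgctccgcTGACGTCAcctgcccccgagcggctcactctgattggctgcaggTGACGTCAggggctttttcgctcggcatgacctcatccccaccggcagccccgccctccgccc

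The Dusp1 window held 1 full element, beginning 143 bases before the start, and a further TGACG beginning 191 bases before it. The Dusp8 window held 2 full elements, beginning 107 and 63 bases before the start, and the Dusp6 window held neither form. Promoter windows were found for 7 of the 9 members, and those of Dusp3, Dusp14, Spry2 and Spred1 also held no TGACG on either strand. Like that of Dusp8, the Dusp3 and Dusp14 windows lie inside the annotated gene, before an internal start, so their outermost promoters were not read. Among all 32851 promoter windows of this length, 1.55% held at least 1 full TGACGTCA and 0.0304% held 2 or more. TGACG, searched on both strands and contained in each full element, was found in 17.8% of windows. None of the 7 windows held the AP-1 motif TGANTCA, read on both strands and found in 6.75% of all windows, or a CArG box, the site of serum response factor, found in 1.47%. A match of letters is a description of the window and no evidence of binding.

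Before the members, the arrays were checked. Camk4 itself was lower in the mutant on its brighter probe set, at 7.27 ± 0.27 in mutant and 7.65 ± 0.10 in control cocaine arrays (SD, n = 6 each) and at 7.30 ± 0.16 in mutant and 7.65 ± 0.06 in control saline arrays (SD, n = 3 each). The difference averaged over treatments was -0.37 ± 0.09 (log2, SE) with an adjusted p of 0.611 in limma, and the highest mutant cocaine array, at 7.69, lay within the control range. On its dimmer probe set past the filter the averaged difference was -0.49 ± 0.27 (adjusted p = 0.679 in limma). There it was -0.75 ± 0.31 after cocaine and -0.23 ± 0.43 after saline. The position of these probes relative to the mutation is not given, so this is a weak check of the labels. Of 11 markers of medium spiny neurons, 6 had a probe set past the filter, with a mean level per array between 12.4 and 12.7. Cortical markers were represented by 2 of 7 genes, at a mean level of 5.19 to 6.77 in mutant and 5.52 to 6.15 in control cocaine arrays and of 5.24 to 6.44 in mutant and 5.39 to 7.19 in control saline arrays. None of the 8 marker lists, which also covered thalamus and septum, oligodendrocytes, astrocytes, microglia, endothelium and choroid plexus, had a gene past the threshold for cocaine or genotype, and their part in the results was not tested. Over all probe sets 0.221% passed for cocaine averaged over genotypes and 0% for genotype after cocaine. The absence of calls therefore says little about the cell make-up of the tissue. Mutant cocaine replicate 5 stood apart, with an actin 3′ minus 5′ difference of 3.59, which rises as RNA shortens. Its 5 Roman-numbered companions had 1.70 ± 0.13 (SD, n = 5), and the difference was 2.38 ± 0.17 in Arabic-numbered cocaine arrays and 2.20 ± 0.19 in saline arrays (SD, n = 6 each).

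Every level below is a log2 expression value of 1 probe set, and every difference is a difference of such levels, so that a value of 1 corresponds to a doubling. Differences come from 1 limma model of all 12674 probe sets past the filter, with group and numbering series as terms, two-sided tests and Benjamini-Hochberg adjustment over all of them. An adjusted p under 0.05 was the threshold. All saline animals are Arabic-numbered, so the size of the cocaine response averaged over genotypes is set by the 12 Arabic-numbered arrays. The Roman-numbered ones add only to the estimate of its error. The responses within each genotype and the difference between them also draw on the Roman-numbered arrays, through a series term shared by both genotypes.

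Dusp1, the nuclear phosphatase of ERK, JNK and p38, showed the largest cocaine response among the members and was the only one past the threshold. Its level ran from 9.25 to 11.3 with a median of 10.7 in mutant cocaine arrays, against 8.38, 8.38 and 8.52 in mutant saline arrays. In control mice it ran from 10.4 to 12.2 with a median of 10.9 after cocaine, against 8.33, 8.71 and 8.74 after saline. Every cocaine array of either genotype therefore lay above every saline array, which was true of 0.410% of all probe sets. Within mutant mice alone 3 of the 10 member probe sets were separated in this way, those of Dusp1, Dusp6 and the brightest of Spred1 (background 1.79%), and within control mice 4, those of Dusp1, Dusp6, Dusp14 and Spry2 (background 1.38%). The lowest cocaine array was mutant replicate 1, at 9.25, and the highest was control replicate 3, at 12.2.

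Averaged over genotypes, Dusp1 rose by 2.09 ± 0.29 (log2, SE), a 4.27-fold increase with a 95% confidence interval of 1.48 to 2.71 on the log2 scale. Its adjusted p was 0.00225 in limma and stayed between 0.000115 and 0.0207 in 31 other settings. The response was 1.93 ± 0.39 in mutant mice (adjusted p = 0.134) and 2.26 ± 0.39 in control mice (adjusted p = 0.0258). In control mice the call was lost without control cocaine replicate 2, any of the 3 control saline replicates or mutant cocaine replicate 4. It was also lost with blocks of consecutive animal numbers (adjusted p = 0.0818), with no filter on dim probe sets and with an ordinary linear model. In mutant mice the threshold was passed without the series term, and once mutant cocaine replicate 1 or replicate 3 of the control cocaine group was left out.

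Of the 10 member probe sets tested, 1 was called for cocaine averaged over genotypes, where the background was 0.221% of probe sets, and it was that of Dusp1. In control mice 1 was called, again Dusp1, with a background of 0.110%, and in mutant mice 0 were called by limma, with a background of 0.0473%. At an unadjusted p under 0.05, the members higher after cocaine numbered 5 of 10 averaged over genotypes (background 2.56%), 4 in mutant mice (2.98%) and 4 in control mice (1.76%). None was lower in any of these contrasts, against a background of 2.52%, 3.97% and 0.844%. An ordinary linear model called 0 members in mutant mice and 0 in control mice, where Dusp1 thus lost its call. The median response was 0.16 over the 10 members and 4.01e-05 over all probe sets.

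**Figure D1:**
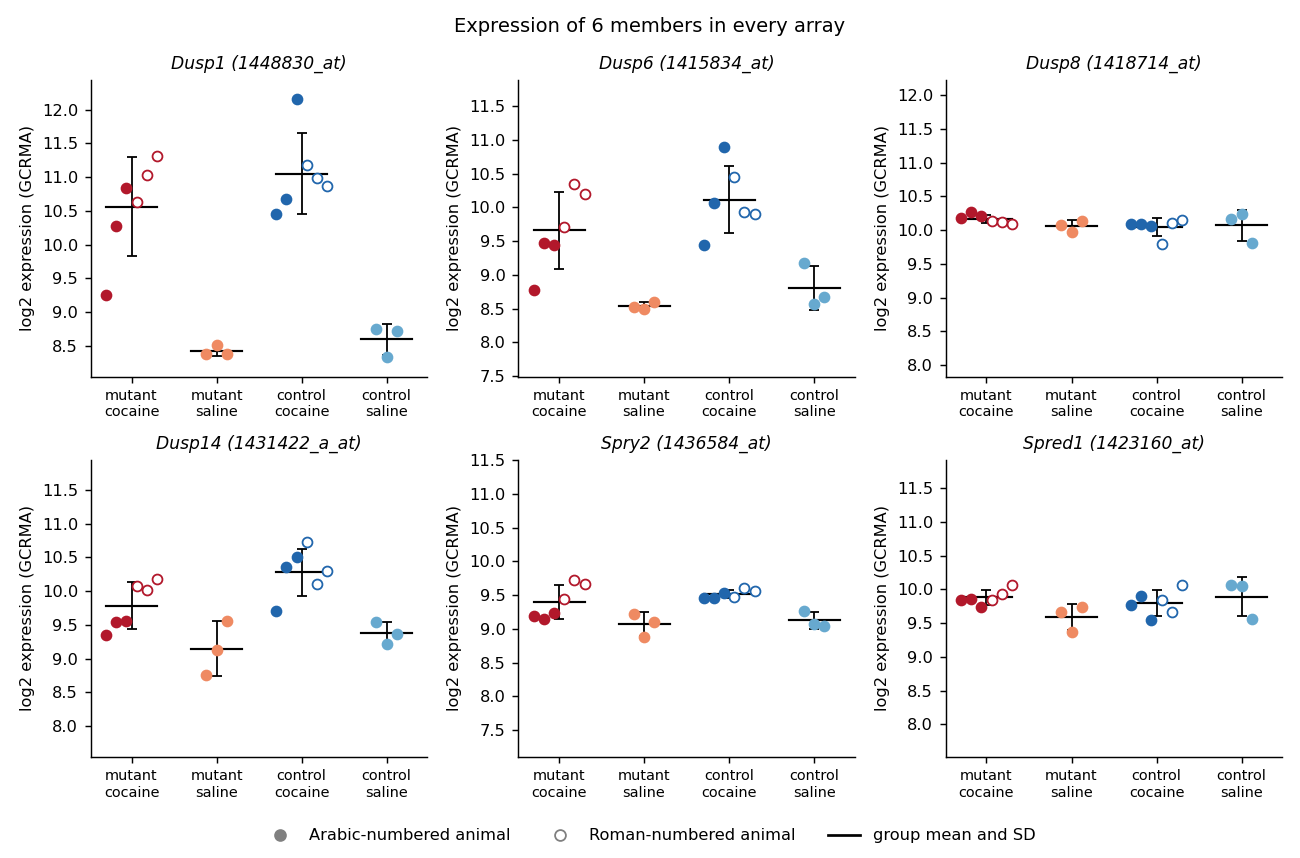
Log2 expression of 6 member probe sets in each of the 18 arrays, with mutant cocaine, mutant saline, control cocaine and control saline from left to right. Filled points are Arabic-numbered and open points Roman-numbered animals, bars are group means with SD, and each panel spans the same log2 range. Dusp1 cocaine arrays all lie above 9.2 and its saline arrays below 8.8, while Dusp8 stays between 9.79 and 10.3 in all arrays.

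Dusp6, the cytoplasmic phosphatase of ERK, was about 1 log2 unit higher after cocaine without passing the threshold. Its level ran from 8.77 to 10.3 with a median of 9.60 in mutant cocaine arrays, against 8.50, 8.52 and 8.61 in mutant saline arrays. In control mice it ran from 9.45 to 10.9 with a median of 10.0 after cocaine, against 8.58, 8.67 and 9.18 after saline. Cocaine and saline arrays did not overlap within either genotype, but mutant cocaine replicate 1 lay below the highest control saline array.

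The averaged difference in Dusp6 was 1.01 ± 0.23 (log2, SE), and its unadjusted p of 5.15e-04 became 0.143 after adjustment in limma. Within each genotype it was 0.91 ± 0.31 in mutant mice and 1.10 ± 0.31 in control mice. The call depended on single arrays and on the model. Without mutant cocaine replicate 5 the averaged difference was the same 1.01 and the adjusted p was 0.0231, because that array enters only through the spread, and without mutant cocaine replicate 1 it was 1.16 with an adjusted p of 0.036. It also passed in the Arabic-numbered arrays alone (adjusted p = 0.0256), with array weights and without the series term (1.21, adjusted p = 0.00937). Without control cocaine replicate 3, which had the highest level, it was 0.79 with an adjusted p of 0.189.

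Dusp8, the phosphatase of stress kinases, was bright and nearly level. It ran from 10.1 to 10.3 with a median of 10.2 in mutant cocaine arrays, against 9.97, 10.1 and 10.1 in mutant saline arrays. In control mice it ran from 9.79 to 10.1 with a median of 10.1 after cocaine, against 9.81, 10.2 and 10.2 after saline, so that the groups overlapped throughout. The averaged difference was 0.08 ± 0.07 (log2, SE), and its interval of -0.07 to 0.23 left out a rise of the size seen in Dusp1 or Dusp6. Its promoter window, printed above, held 2 full cAMP response elements, and a relation between these elements and the response was not tested.

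The responses of these 3 representatives were compared directly within arrays. In the 12 Arabic-numbered arrays, the response of Dusp1 exceeded that of Dusp6 by 1.09 on the log2 scale (1.01 in mutant and 1.16 in control mice). It exceeded that of Dusp8 by 2.01 (1.54 in mutant and 2.48 in control mice), and the response of Dusp6 exceeded that of Dusp8 by 0.93 (0.53 in mutant and 1.32 in control mice). Each had a two-sided p of 0.005 in an exact permutation test of the treatment labels within genotype, which is the smallest that the 400 relabellings allow, and 0.005 after adjustment over the 3 pairs.

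**Figure D2:**
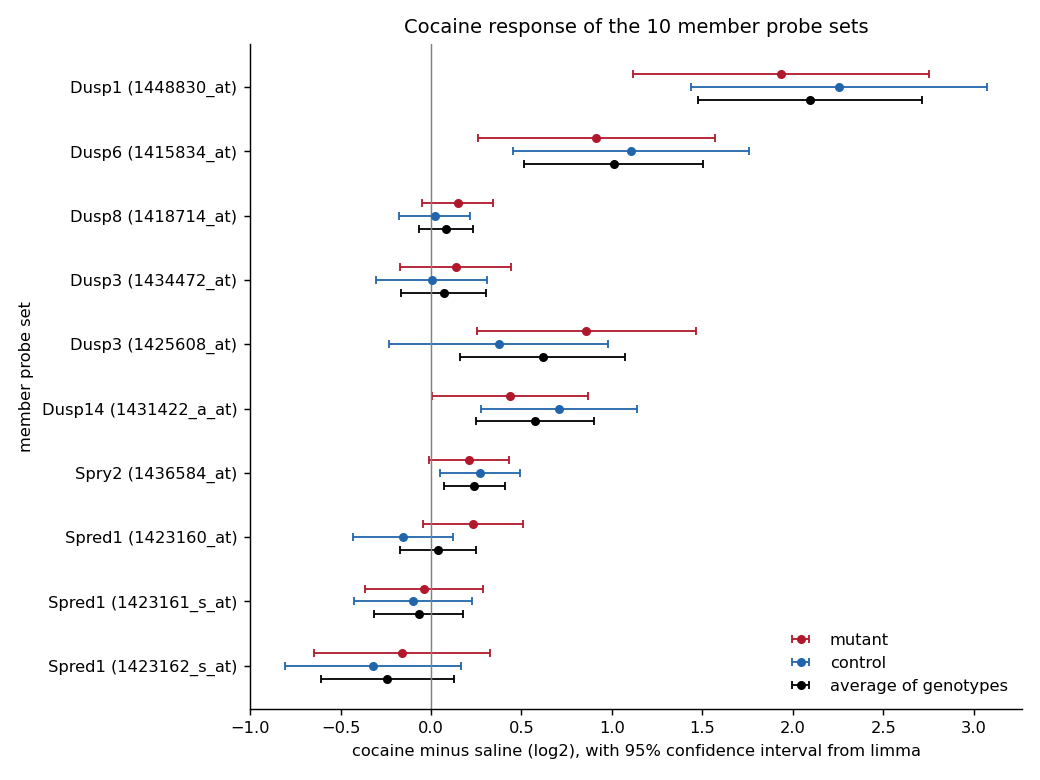
Cocaine minus saline difference (log2) of the 10 member probe sets past the filter, in mutant mice, in control mice and averaged over genotypes from top to bottom within each row, with 95% confidence intervals from limma. Dusp1 stands at 2.09 and Dusp6 at 1.01 averaged over genotypes, and the intervals of Dusp8, the brighter probe set of Dusp3 and all 3 Spred1 probe sets include 0.

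Of the small phosphatases, Dusp14 was higher after cocaine without passing. Its level ran from 9.35 to 10.2 with a median of 9.78 in mutant cocaine arrays, against 8.76, 9.13 and 9.56 in mutant saline arrays, which overlapped. In control mice it ran from 9.71 to 10.7 with a median of 10.3 after cocaine, against 9.22, 9.36 and 9.54 after saline, with no overlap. The averaged difference was 0.57 ± 0.15 (log2, SE; adjusted p = 0.293), made of 0.44 ± 0.20 in mutant and 0.71 ± 0.20 in control mice. It passed only without the series term, where it was 0.77 with an adjusted p of 0.0249, and the Roman-numbered cocaine arrays then count towards the difference. Without mutant cocaine replicate 5 the adjusted p was 0.0606.

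The 2 probe sets of Dusp3, a phosphatase of ERK and JNK, disagreed. The brighter one ran from 9.55 to 10.3 in mutant and from 9.43 to 10.1 in control cocaine arrays, against 9.74 to 10.0 in mutant and 9.77 to 9.90 in control saline arrays, and its averaged difference was 0.07 ± 0.11 (log2, SE). The dimmer one lay close to the filter, with levels of 3.82 to 5.67 and 16 of 18 arrays above 4. Its averaged difference was 0.62 ± 0.22 (unadjusted p = 0.0115, adjusted p = 0.836). In the Roman-numbered cocaine arrays its mean was 4.36 in mutant and 4.01 in control mice, against 4.41 over the 6 saline arrays of both genotypes, so these arrays did not lie above saline.

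Among the sprouty-type members, Spry2, an inhibitor of receptor tyrosine kinase signalling to Ras, was slightly higher after cocaine. Its bright probe set ran from 9.14 to 9.72 with a median of 9.33 in mutant cocaine arrays, against 8.88, 9.11 and 9.23 in mutant saline arrays. In control mice it ran from 9.46 to 9.60 with a median of 9.51 after cocaine, against 9.04, 9.07 and 9.27 after saline. The control groups did not overlap and the mutant groups did. The averaged difference was 0.24 ± 0.08 (log2, SE; unadjusted p = 0.00762, adjusted p = 0.743). Its other probe set lay between 2.16 and 2.22 and both probe sets of Spry4, a related inhibitor, between 2.07 and 2.19 in every array, below the filter, so no difference could be measured there.

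Spred1, a membrane-bound inhibitor of Raf activation, had 3 probe sets past the filter and no change past the threshold. The brightest ran from 9.75 to 10.1 in mutant and from 9.54 to 10.1 in control cocaine arrays, against 9.36, 9.66 and 9.74 in mutant and 9.55, 10.0 and 10.1 in control saline arrays. Its averaged difference was 0.04 ± 0.10 (log2, SE), at 0.23 ± 0.13 in mutant and -0.16 ± 0.13 in control mice. The mutant minus control difference of these responses was 0.39 ± 0.17 (unadjusted p = 0.0379, adjusted p = 0.992), and the other 2 probe sets had 0.06 ± 0.20 and 0.16 ± 0.30. On the dimmest probe set, mutant cocaine replicate 5 was the lowest of all arrays at 6.76, which is also the array with the largest actin 3′ minus 5′ difference.

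Genotype differences in the members were then examined within cocaine and saline arrays. After cocaine the mutant lay below control for Dusp1 (-0.49 ± 0.29, log2, SE), Dusp6 (-0.46 ± 0.23), Dusp14 (-0.50 ± 0.15) and Spry2 (-0.12 ± 0.08). The smallest unadjusted p was 0.00506, for Dusp14, and its adjusted p was 0.427. Of the 10 member probe sets 0 passed in limma for this contrast, with a background of 0% called, and at an unadjusted p under 0.05 there were 1 lower (background 5.79%) and 1 higher (background 5.81%). The higher one was the dim probe set of Dusp3, at 0.49 ± 0.22. An ordinary linear model also called 0. With control cocaine replicate 3 left out, the mutant minus control difference after cocaine was -0.21 for Dusp1, -0.24 for Dusp6 and -0.40 for Dusp14.

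These differences lay mainly in 1 numbering series. In Arabic-numbered cocaine arrays, Dusp1 averaged 10.1 in mutant and 11.1 in control mice, a difference of -0.97, whereas in Roman-numbered arrays it averaged 11.0 in each genotype, a difference of -0.02. For Dusp6 the differences were -0.91 and -0.01, for Dusp14 -0.71 and -0.29, and for Spry2 -0.30 and 0.06, in Arabic- and Roman-numbered arrays in that order. Every Arabic-numbered mutant cocaine array lay below every control one for Dusp14 and Spry2, 2 of 10 members against a background of 6.03%. In the Roman-numbered arrays this held for 0 of 10 members, with a background of 7.15%. With 3 arrays against 3, an exact permutation test cannot give a p below 0.1, and whether the 2 series differ in their genotype effect was not tested.

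**Figure D3:**
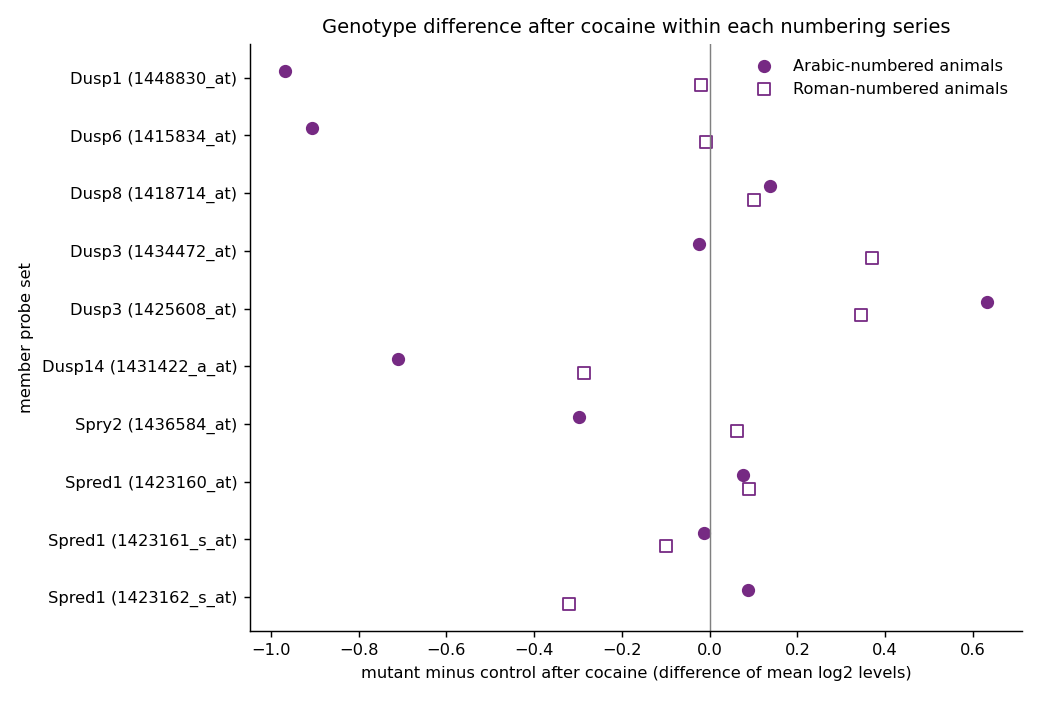
Mutant minus control difference in mean log2 expression after cocaine, for each of the 10 member probe sets, in Arabic-numbered (filled circles) and Roman-numbered (open squares) animals, 3 arrays per genotype in each. Dusp1 and Dusp6 stand at -0.97 and -0.91 in Arabic-numbered animals and within 0.02 of 0 in Roman-numbered animals.

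After saline 0 of 10 member probe sets passed in limma (background 0%), and at an unadjusted p under 0.05 there was 1, the brightest probe set of Spred1, lower in the mutant by -0.30 ± 0.14 (background 0.931% lower and 1.83% higher). Dusp1 was at -0.17 ± 0.41 (log2, SE) and Dusp6 at -0.27 ± 0.33. The cocaine response differed between genotypes for 0 of 10 (background 0%) in limma, mutant minus control, with Dusp1 at -0.32 ± 0.51 and an interval of -1.39 to 0.75. Dusp6 was at -0.19 ± 0.40, with an interval of -1.05 to 0.66, and Dusp14 at -0.27 ± 0.27. In the Arabic-numbered arrays alone, the only ones with saline animals, this difference was -0.80 for Dusp1, -0.64 for Dusp6 and -0.48 for Dusp14. These were the most negative values of all settings run. Without control cocaine replicate 3 the difference was -0.03 for Dusp1 and 0.03 for Dusp6. For Dusp14 it came nearest to 0 without mutant saline replicate 3, at -0.07. None of these passed. An ordinary linear model called 0 after saline and 0 for the difference in response. At an unadjusted p under 0.05 the response differed for 1 of 10, the Spred1 probe set above (background 1.21% higher). Averaged over treatments 0 of 10 members differed between genotypes (background 0%), with 1 at an unadjusted p under 0.05, Dusp14 at -0.36 ± 0.13 (background 2.30% lower and 4.83% higher).

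Correlations across animals were computed for the pairs among Dusp1, Dusp6 and Dusp14, and not for Spry2 or Dusp3. Over the 12 cocaine arrays, Dusp1 and Dusp6 had a Pearson r of 0.924 (permutation p = 8e-05) and a Spearman rho of 0.867 (permutation p = 0.00051), with r = 0.78 when the 2 arrays farthest from the Dusp1 median were left out. After the mean of each genotype and series was subtracted, r was 0.882 (permutation p = 0.00011). That permutation shuffled all 12 arrays freely and did not allow for the subtracted means, so its p is too small. Within series r was 0.938 in the Arabic-numbered arrays (exact permutation p = 0.025) and 0.799 in the Roman-numbered arrays (exact permutation p = 0.05). Adjusted over the 12 correlations computed, these p were 0.0375 and 0.06, so the Roman-numbered value did not pass. Spearman rho was 0.6 and 0.829 in the same order (exact permutation p = 0.242 and 0.0583). Without the 2 farthest arrays the Arabic-numbered r was 0.254, so there it rests on mutant replicate 1 and control replicate 3.

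Dusp6 and Dusp14 had r = 0.872 (rho = 0.832) over the 12 cocaine arrays, with 0.937 in the Arabic-numbered and 0.492 in the Roman-numbered ones (exact permutation p = 0.00556 and 0.336). For Dusp1 and Dusp14 r was 0.745 (rho = 0.741), with 0.793 and 0.367 in the same order (exact permutation p = 0.0236 and 0.458), so neither relation with Dusp14 passed in the Roman-numbered arrays. Without the 2 farthest arrays, Dusp6 with Dusp14 had r = 0.831 over all cocaine arrays, 0.973 in the Arabic-numbered and -0.686 in the Roman-numbered ones. Dusp1 with Dusp14 then had 0.61 over all cocaine arrays, 0.266 in the Arabic-numbered and 0.607 in the Roman-numbered ones, so that its Arabic-numbered value rests on the 2 arrays left out. Over the 12 correlations computed, adjusted p was 0.00066 for Dusp1 with Dusp6, 0.00092 for Dusp6 with Dusp14 and 0.00946 for Dusp1 with Dusp14 over all cocaine arrays. With the mean of each genotype and series subtracted, r was 0.801 for Dusp6 with Dusp14 and 0.608 for Dusp1 with Dusp14. Their adjusted permutation p was 0.00696 and 0.0497. Both are too small, since the shuffling did not allow for the subtracted means. Whether the value of 0.0497 would stay under 0.05 is therefore not known. Leaving out the 2 farthest arrays from these centred values gave r = 0.587 and 0.491.

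**Figure D4:**
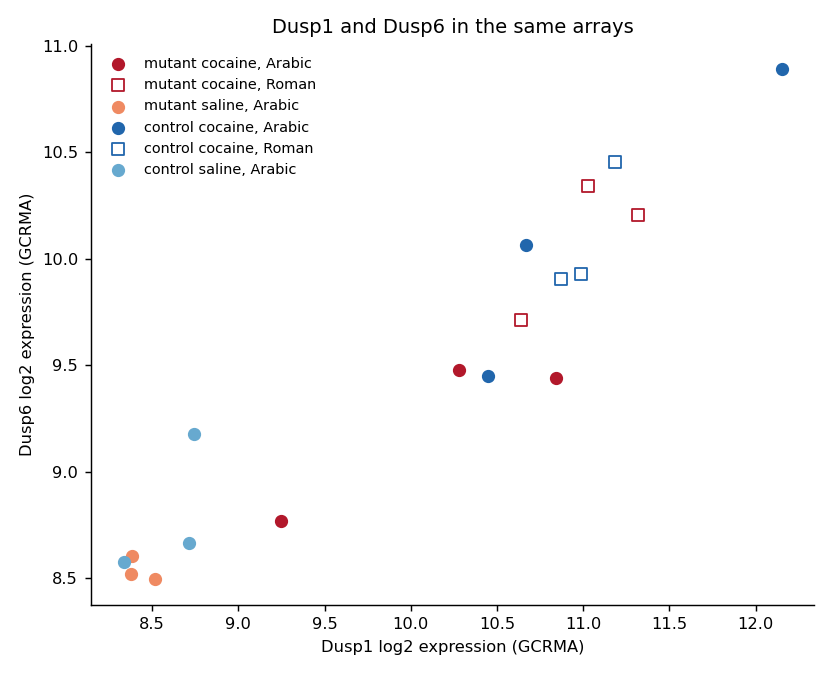
Dusp6 against Dusp1 log2 expression in each of the 18 arrays, coloured by group, with filled circles for Arabic-numbered and open squares for Roman-numbered animals. Saline arrays sit at Dusp1 levels of 8.33 to 8.74, and among cocaine arrays Dusp6 is higher where Dusp1 is higher, from mutant replicate 1 (9.25 and 8.77) to control replicate 3 (12.2 and 10.9).

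Over the 12 Arabic-numbered arrays, which include both treatments, the genes with a pattern most like Dusp1 were Junb (r = 0.992), Btg2 (0.982), Gadd45b (0.981), Fos (0.977) and Tob2 (0.976). Those most like Dusp6 were Jun (0.966), Egr4 (0.949), Per1 (0.948) and Egr1 (0.946). Those most like Dusp8 were Dtna (0.929), Slc66a2 (0.904), Nrp1 (0.902), Acp1 (0.879) and Washc4 (0.87). These correlations describe the same 12 arrays, and for the first 2 members the split between cocaine and saline contributes to them.

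The rest of the pathway was read from lists. Of the other dual specificity and MAP kinase phosphatases, 11 of 18 genes had a probe set past the filter, and 0 of their 16 probe sets passed in limma for cocaine averaged over genotypes, with 1 at an unadjusted p under 0.05 and a median of 0.01. The brightest were Ptpn5, the striatum-enriched tyrosine phosphatase that acts on ERK, at -0.01 ± 0.05 (log2, SE; a dimmer probe set at -0.51 ± 0.40), and Dusp26 at 0.03 ± 0.05. Dusp7, an ERK phosphatase related to Dusp6 and named here after its values were seen, was at -0.40 ± 0.11 (unadjusted p = 0.00193, adjusted p = 0.306) and, on its other probe set, at -0.20 ± 0.12. Both values were negative without passing the threshold. Among all probe sets 0.221% passed. At an unadjusted p under 0.05, 2.56% were higher and 2.52% lower, so 1 of 16 is near the share over all.

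Of the other brakes on Ras and ERK, 8 of 12 genes were measured and 0 of 13 probe sets passed, with 1 at an unadjusted p under 0.05. The brightest were Pebp1, which binds Raf, at -0.03 ± 0.04 and Lztr1 at 0.04 ± 0.07. Errfi1, an inhibitor of the EGF receptor family and the 1 just counted, named after its values were seen, was at 0.26 ± 0.06 (adjusted p = 0.165), and its other probe set at -0.28 ± 0.17. The matching shares over all probe sets were again 0.221% past the threshold, and 2.56% higher and 2.52% lower at the unadjusted p.

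For the kinases on which the members act, 0 of 22 probe sets of the ERK cascade passed, with 3 at an unadjusted p under 0.05, and 0 of 29 of the JNK and p38 cascade, with 2. Over all probe sets that share was 2.56% higher and 2.52% lower. These 5 are named after their values were seen. In the ERK cascade, Map2k2, the other kinase that phosphorylates ERK, was at 0.15 ± 0.05 (log2, SE; adjusted p = 0.778) and Mknk2, a kinase downstream of ERK, at 0.37 ± 0.13 (adjusted p = 0.836). Their dimmer probe sets were at 0.11 ± 0.13 and 0.09 ± 0.12 in the same order. Rasgrp1, an activator of Ras, was at -1.57 ± 0.64 (adjusted p = 0.859), with -0.97 ± 0.47 and -0.20 ± 0.34 on its other probe sets. In the stress kinase cascade, the p38 gene Mapk14 was at -0.84 ± 0.37, against -0.02 ± 0.05 on its brighter probe set, and the JNK gene Mapk8 at -0.27 ± 0.12 (adjusted p = 0.859 each). The brightest genes of these lists lay nearer to 0. Map2k1, the kinase that phosphorylates ERK, was at -0.08 ± 0.06 and Rasgrf1, a calcium-sensitive activator of Ras, at 0.02 ± 0.06 on its brightest probe set, while the JNK gene Mapk10 was at 0.08 ± 0.07 and the scaffold Mapk8ip2 at 0.03 ± 0.06. Of the transcripts listed as ERK-dependent, 8 of 15 probe sets rose, for Fos, Fosb, Junb, Egr1, Egr2, Egr4 and Arc. The list median was 0.72, and 0.221% of all probe sets were called. Phlda1 at 0.44 ± 0.16 and Ier3 at 0.22 ± 0.14 did not pass. Nor did Ier5 and Etv5, at 0.19 ± 0.09 and -0.07 ± 0.27 on their brightest probe sets. Whether ERK drove any of these transcripts here was not tested. The 4 lists of phosphatases, brakes and kinases had medians between -0.01 and 0.01, near that of all probe sets. Within each genotype, 5 probe sets of the ERK-dependent transcripts passed in mutant mice (0.0473% of all probe sets called) and 5 in control mice (0.110%).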

How the data were processed

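Striatal RNA of 18 mice was measured on Affymetrix arrays. The deposited values are log2 expression per probe set, made by the authors with GCRMA in R 2.4.1, per the submitters' processing notes. The sources used here give no settings for it. GCRMA estimates background from the probes' bases, brings the arrays to 1 distribution and combines the probes of a set, so a change in total signal is removed and dim probe sets are compressed. The number of arrays limits the precision.

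Probe sets were named by the platform annotation, and only those with 1 symbol were used. A level above 4 in at least 3 arrays was required and 64 control probe sets were left out. limma 3.58.1 in R 4.3.3 fitted the 4 groups and the numbering series to all 12674 probe sets, with a variance trend and Benjamini-Hochberg adjustment, in 7 contrasts (13 residual degrees of freedom, plus 3.13 by moderation). The model was tested on simulated data, with 100 of 12674 probe sets changed. For a change of 1 log2 unit with cocaine, averaged over genotypes, 92% were recovered with 12 false calls. For 2 log2 units 100% were recovered, also with 12 false calls. In both simulations the share of false calls lay above the 0.05 that the threshold aims at. Recovery was counted over all changed probe sets together. It need not hold for a probe set with a wide spread, such as that of Dusp6. Its averaged difference had an SE of 0.23, against a median SE of 0.09 over all probe sets. Differences between members were tested by exact permutation of treatment within genotype, and correlations by permutation (100000 draws for 12 arrays, exact for 6). Promoter letters came from RefSeq windows. The alternatives changed the series term, arrays, blocks, weights, filter, moderation, normalization and threshold, and left out each replicate.

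Of 21 pairs of arrays with the same replicate number, 7 had a residual correlation above 0.1 (range -0.234 to 0.307), so the numbers were not taken to pair the samples. Named genes were all members, Camk4, for each pathway list the members past the threshold or else the 2 of highest level (others named in those lists were chosen after their values were seen), and the 5 genes most like each of Dusp1, Dusp6 and Dusp8, of which 1 is not reported here. The members and lists were chosen with earlier results of these data known. The alternative with the actin difference as a covariate and the correlations within each numbering series and with means subtracted were added after seeing the data.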

Additional observations from a re-analysis of the deposited data

Results flagged for a closer look

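Dusp8 in control cocaine replicate 4, a Roman-numbered array, was at 9.79, far from the other 5 arrays of its group, which all lay at 10.1. Its gap to the nearest of them was 0.743 of the group's range. Both cocaine groups of the 10 member probe sets were examined in this way, 20 groups in all, and chance flags about 1 in 20 groups. Groups of 3 arrays were not examined.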

How the results depend on the processing

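For cocaine averaged over genotypes, 1 member probe set was called, and the count was 3 without the series term (Dusp1, Dusp6 and Dusp14) and 2 in the Arabic-numbered arrays alone or with array weights (Dusp1 and Dusp6). It ranged from 1 to 2 over the 18 fits that each left out 1 replicate, with 2 without mutant cocaine replicate 1 or 5. In mutant mice the count of 0 became 1 (Dusp1) without the series term and ranged from 0 to 1 with 1 replicate left out. In control mice the count of 1 became 0 with consecutive animal number blocks, with no filter on dim probe sets or with an ordinary linear model, and ranged from 0 to 1 with 1 replicate left out. The genotype and interaction counts were 0 in every setting run. With the replicate block the 3 cocaine counts were 1, 0 and 1 in the order averaged, mutant and control. In that fit Dusp1 had an averaged adjusted p of 0.00567. With the actin difference as a covariate, added after seeing the data, they were also 1, 0 and 1.

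The background counts moved more. For cocaine averaged over genotypes 28 probe sets passed, and between 16 and 430 in the other settings (430 in the Arabic-numbered arrays alone, 98 of them higher) and 20 to 362 with 1 replicate left out (362 without mutant cocaine replicate 5, 95 of them higher). In mutant mice 6 passed, with 0 to 14 in other settings and 0 to 26 with 1 replicate left out, and in control mice 14 passed, with 0 to 43 and 0 to 28. Without the series term 67, 14 and 24 passed.

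Of 1575 member values under alternatives in 5 contrasts, 36 had the opposite sign, and 0 of these passed the threshold in either fit. The differences between responses kept their sign and an exact permutation p under 0.05 in every alternative. Leaving out 1 replicate, Dusp1 minus Dusp6 ranged from 0.96 to 1.19, Dusp1 minus Dusp8 from 1.74 to 2.22 and Dusp6 minus Dusp8 from 0.73 to 1.10. With permutation within consecutive blocks each exact p was 0.0312, the smallest possible there.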
